A study of Mus musculus with 12 samples.

Results

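The genes described here are 8 genes of the aryl hydrocarbon receptor pathway, taken by name out of the 29428 genes of the deposited expression table: Cyp1a1, Cyp1b1, Ahr, Ahrr, Tiparp, Arnt, Arnt2 and Aldh3a1. The set was put together because Cyp1a1 was not detected in STHdhQ111 cells, so the set was chosen by the levels of Cyp1a1 in the 2 cell lines, which are given below as a description without a test. The question was whether the receptor and its other targets were lower as well. The RNA-seq data came from STHdhQ7/Q7 cells (normal huntingtin, 7 glutamine repeats) and STHdhQ111/Q111 cells (expanded huntingtin, 111 repeats), both immortal neuronal lines of mouse striatum. Each line was left untreated (Q7-C and Q111-C) or received 100 ng/mL murine IFNγ together with 5 μg/mL LPS over 24 h as a neuroinflammatory challenge (Q7-T and Q111-T), with 3 libraries in each of the 4 groups. Each genotype was represented by 1 line, so a difference between the lines and an effect of the repeat length cannot be told apart. The libraries of a group are called biological replicates in the study's text, and as the labels do not say whether they were separate cultures, p-values measure the spread between these libraries.

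The aryl hydrocarbon receptor, encoded by Ahr, is a ligand-activated transcription factor of the bHLH-PAS family. Without a ligand it waits in the cytoplasm in a complex with HSP90 and p23. Upon binding a ligand, such as dioxin, an indole or a tryptophan metabolite, it moves to the nucleus, pairs with ARNT or its neural relative ARNT2, and binds DNA at xenobiotic response elements with the core GCGTG. Its best known targets are the cytochrome P450 enzymes Cyp1a1 and Cyp1b1, the aldehyde dehydrogenase Aldh3a1, and its own brakes Ahrr, a repressor that competes for ARNT, and Tiparp, an ADP-ribosyltransferase that restrains the receptor.

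Promoter sequences (RefSeq, GRCm38.p6) were given for 6 of the 8 genes. They are shown upstream of the RefSeq start site in lower case, 5′ to 3′ on the strand of the gene, with the response element core in capitals (GCGTG, or CACGC where the core is read on the other strand), because the same core lies before genes whose levels went opposite ways between the lines. Cyp1a1 and Cyp1b1 are shown over 250 bases, at chr9:57697363-57697612 (plus strand) and chr17:79715062-79715311 (minus strand).
Cyp1a1: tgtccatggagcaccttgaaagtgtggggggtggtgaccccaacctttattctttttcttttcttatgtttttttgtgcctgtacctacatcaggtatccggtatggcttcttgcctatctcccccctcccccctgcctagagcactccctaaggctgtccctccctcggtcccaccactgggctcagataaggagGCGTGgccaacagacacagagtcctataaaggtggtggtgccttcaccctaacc
Cyp1b1: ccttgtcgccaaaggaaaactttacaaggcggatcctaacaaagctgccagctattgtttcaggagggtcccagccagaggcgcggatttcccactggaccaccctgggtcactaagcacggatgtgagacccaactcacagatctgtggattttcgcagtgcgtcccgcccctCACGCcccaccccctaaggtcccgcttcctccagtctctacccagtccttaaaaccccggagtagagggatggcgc
The other genes with a core are shown over the stretch that holds it: the repressor gene Ahrr at chr13:74292332-74292451 (minus strand), Tiparp at chr3:65528247-65528306 (plus strand) and Arnt at chr3:95434330-95434389 (plus strand).
Ahrr: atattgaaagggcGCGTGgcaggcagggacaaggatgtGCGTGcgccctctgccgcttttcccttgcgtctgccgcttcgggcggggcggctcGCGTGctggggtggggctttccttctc
Tiparp: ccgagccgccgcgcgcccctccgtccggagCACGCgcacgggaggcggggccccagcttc
Arnt: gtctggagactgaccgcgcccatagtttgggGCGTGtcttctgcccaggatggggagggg

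The core began 54 bases before the start site in Cyp1a1, 76 bases before it in Cyp1b1, 170 in Tiparp and 29 in Arnt. Ahrr had 3 copies, at 107, 82 and 27 bases. Arnt2 had none in the 250 bases before its start. A GCGTG core on either strand was thus present in 5 of the 6 promoters, against 28.2% of 32851 promoters of the same length. GCGTG is also one form of the hypoxia response core, so a match does not name a factor. The longer form TNGCGTG, on either strand, was present in 1 of the 6 (Ahrr) and in 4.1% of all promoters. Among other reported targets of the receptor, 1 of the 7 with a promoter sequence held the core (Scin). A match is a string of letters in the window, and no match says nothing about sites farther away.

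The libraries held between 57505990 and 96417834 estimated read counts. Levels are given in TPM, transcript abundance scaled for transcript length and library total, so that they can be compared between genes. Fold changes and p-values came from edgeR's quasi-likelihood test on the counts of 16127 genes that reached 0.5 TPM in at least 3 libraries, and genes were called differentially expressed (DEGs) at a Benjamini-Hochberg adjusted p under 0.05 together with a change of 2-fold or more. Of the 8 genes, 7 passed this filter. Cyp1a1 passed it through its Q7 libraries alone, and Aldh3a1 reached 0.5 TPM in 1 library of Q111 beside the 6 of Q7, so both had to be higher in Q7 to be tested and their differences between the lines are given as descriptions without a test, and Ahrr was too low to be tested. A gene was treated as not detected in a group when each library had 12 or fewer estimated counts, which corresponds to about 3 read pairs.

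The challenge acted in both lines. Nos2, the inducible nitric oxide synthase, rose by a log2 fold change of 6.31 (SE 0.51) in Q7 and 8.90 (SE 0.57) in Q111, with edgeR adjusted p of 1.05e-05 and 1.06e-06. The interferon-induced Gbp2 rose in both lines as well, 128-fold in Q7 and 77.2-fold in Q111. Of the cell type markers, Snap25, Syt1 and Aqp4 were below 0.1 TPM in every library, as was the leukocyte marker Ptprc, while Vim and Col1a1 were high, so the neuronal label of the lines rests on few of its markers (Tubb3 at 2.56 to 83.6 TPM and Map2 at 0.604 to 10.6 TPM). Summed levels of the marker lists differed between the lines: the 4 neuronal markers in the table summed to 22.2 to 27.5 TPM in Q7-C and 8.71 to 11 in Q111-C, with Snap25 and Syt1 at or near 0, the 3 medium spiny neuron markers in the table to 0.29 to 0.486 and 1.22 to 1.49 TPM, and the 5 astrocyte markers to 1.05 to 1.62 and 8.69 to 10.8 TPM. The astrocyte sum was almost all Slc1a3, a glutamate transporter gene, at 0.434 to 1.32 TPM in Q7-C and 8.6 to 10.6 in Q111-C, while Gfap and Aldh1l1 were lower on average in Q111-C. With treatment these sums were 58.5 to 86.3 TPM in Q7-T and 28.9 to 32.4 in Q111-T for neuronal markers, 0.0769 to 0.444 and 0.535 to 1.12 TPM for medium spiny neuron markers, and 1.33 to 1.85 and 4.05 to 5.24 TPM for astrocyte markers. The neuronal sum was mostly Tubb3, lower in Q111-T (log2 fold change -1.99, edgeR adjusted p = 9.05e-05), while Map2 was higher there (1.12, adjusted p = 0.0223). The 7 mesenchymal markers summed to 4243 to 4838 TPM in Q7-C, 3671 to 3829 in Q111-C, 3285 to 3713 in Q7-T and 1502 to 1622 in Q111-T. Within that list the genes went both ways: Acta2, smooth muscle actin, was at 1605 to 1792 TPM in Q7-C and 24.6 to 56 in Q111-C, whereas Col1a1, Col1a2 and Col3a1 were higher in Q111-C by 1.25, 3.81 and 2.00 on the log2 scale (edgeR adjusted p of 6.49e-06 or less for Col1a2 and Col3a1, and 5.33e-05 for Col1a1). The 4 macrophage or microglia markers in the table summed to 12 to 13.3 TPM in Q7-C, 17.7 to 20.5 in Q111-C, 3.07 to 3.49 in Q7-T and 5 to 5.8 in Q111-T. Nearly all of this was Tmem119, which fell by 1.78 in Q7 and 1.77 in Q111 with treatment (adjusted p = 4.29e-04 and 1.86e-04), beside Csf1r, Itgam and Ptprc at no more than 0.479 TPM. The part of these markers in the differences below was not tested, and in bulk RNA fewer cells of a kind and less RNA per cell cannot be told apart.

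A pair of libraries stood apart. In Q7-C replicate 1 and Q7-T replicate 2, long transcripts (at least 6000 bases, 1794 genes) were lower than short ones (at most 2000 bases, 5645 genes) relative to their group, by 0.94 and 1.09 on the log2 scale. Q111-T replicate 2 moved the same way, with a difference of -0.59. The transcripts of Ahr, Cyp1b1, Tiparp, Arnt and Arnt2 are 4191 to 6228 bases long, and these genes were lowest in these libraries of Q7, as the values below show. Between the lines, the median log2 fold change was -0.15 for short and 0.09 for long transcripts without treatment, and -0.35 and 0.27 with treatment. For the response to treatment it was 0.15 and -0.17 in Q7 and -0.04 and 0.04 in Q111. The difference of the responses had medians of -0.21 for short and 0.21 for long transcripts. Results were therefore also computed without both Q7 libraries, a choice made after seeing the data. Changing from count-based scaling to TPM shifted the median gene between the lines by 0.29 (control) and 0.37 (treated) on the log2 scale.

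**Figure D1:**
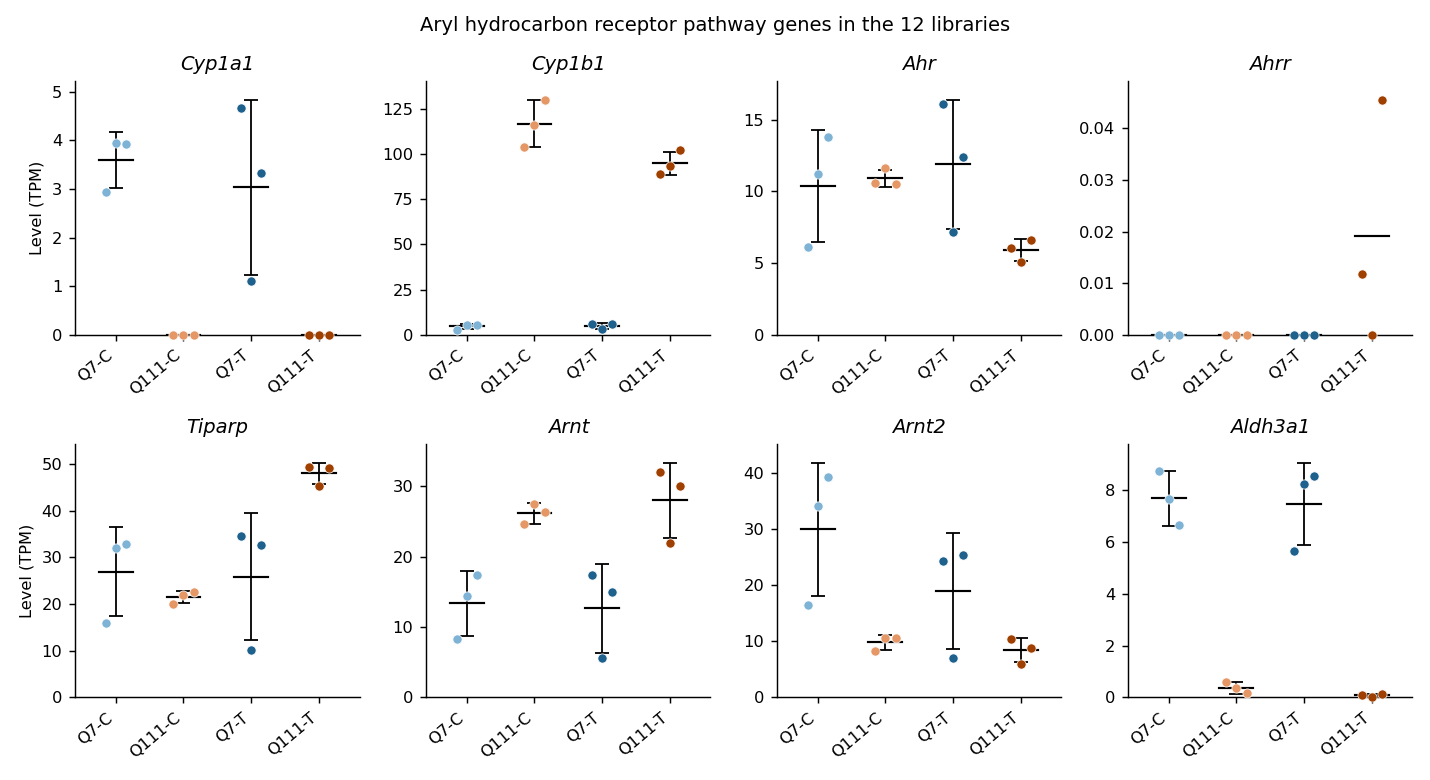
Level in TPM (vertical axes, linear and starting at 0, a separate scale for each gene) of the 8 genes in the 12 libraries by group; each point is a library, the horizontal bar is the mean and the error bar the SD of 3 libraries, left out where the SD exceeds the mean. Cyp1a1 is at 0 in all 6 Q111 libraries, Cyp1b1 reaches 89.2 to 130 TPM there, and Ahr falls to 5.07 to 6.58 TPM in Q111-T.

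Cyp1a1 (ENSMUSG00000032315, chr9:57687928-57703824, plus strand, GRCm38), the enzyme that oxidises polycyclic aromatic hydrocarbons, was present in Q7 and absent from the counts of Q111. Its level was 2.94, 3.94 and 3.93 TPM in Q7-C, from 316, 405 and 473 estimated counts. In Q7-T it was 4.67, 1.10 and 3.33 TPM, from 421, 119 and 471 counts. All 6 Q111 libraries had a count of 0. Relative to the floor of 12 counts in each library, Cyp1a1 was at least 35.7-fold lower in Q111-C than in Q7-C and at least 27.3-fold lower in Q111-T than in Q7-T. A count of 0 in all Q111 libraries was shared by 25 of the 16127 tested genes (0.155%). The treatment did not change Cyp1a1 detectably in Q7, with a log2 fold change of -0.17 (SE 0.38, edgeR adjusted p = 0.893), and Q7-T replicate 2, the library with low long transcripts, held the lowest value.

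Cyp1b1 (ENSMUSG00000024087, chr17:79701537-79715061, minus strand), another P450 of the family and an oestrogen-oxidising enzyme, went the opposite way. Its level was 2.85, 5.44 and 5.52 TPM in Q7-C and 104, 116 and 130 TPM in Q111-C. With treatment it was 6.18, 3.22 and 5.74 TPM in Q7-T and 89.2, 93.2 and 102 TPM in Q111-T. The lowest Q111 library was above the highest Q7 library by far in both states. Untreated Q111 cells had 20.9-fold more Cyp1b1 than untreated Q7 cells (log2 fold change 4.39, SE 0.18, edgeR adjusted p = 1.01e-07), and treated Q111 cells 14.6-fold more than treated Q7 cells (log2 fold change 3.87, SE 0.18, adjusted p = 1.88e-07). The treatment did not change it past the threshold in either line, with a log2 fold change of 0.32 (SE 0.16) in Q7 and -0.19 (SE 0.16) in Q111, and the difference of the responses missed the threshold too (-0.51, SE 0.23, adjusted p = 0.233).

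Aldh3a1 (ENSMUSG00000019102, chr11:61207537-61218421, plus strand), which oxidises aromatic and lipid aldehydes, resembled Cyp1a1. It was at 8.74, 7.67 and 6.64 TPM in Q7-C and at 0.590, 0.352 and 0.161 TPM in Q111-C, from 36, 24 and 12 counts. With treatment it was at 5.66, 8.25 and 8.54 TPM in Q7-T, whereas in Q111-T it was at 0.0867, 0 and 0.145 TPM, from 7, 0 and 8 counts, which is below the floor. The groups of the 2 lines did not overlap in either state. Aldh3a1 was 26.7-fold lower in Q111-C than in Q7-C (fitted log2 fold change -4.74, SE 0.70) and at least 54.2-fold lower in Q111-T against Q7-T. In Q7 the treatment left it at a log2 fold change of 0.19 (SE 0.59, adjusted p = 0.932). In Q111 it was not detected after treatment, but Q111-C replicate 3 was itself at the floor, and the fitted change missed the threshold by edgeR (-2.10, SE 0.75, adjusted p = 0.0784) and passed it by DESeq2 (-2.14, adjusted p = 0.00875) and by limma at a pseudocount of 0.1 (-1.39, adjusted p = 0.0419). Its transcript is 1729 bases long, and unlike the longer genes it was not lowest in Q7-C replicate 1 or Q7-T replicate 2.

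The receptor itself did not differ past the threshold between the untreated lines. Ahr (ENSMUSG00000019256, chr12:35497974-35535038, minus strand) was at 6.10, 11.2 and 13.8 TPM in Q7-C and at 10.6, 11.6 and 10.5 TPM in Q111-C, ranges that overlap. The log2 fold change was -0.20 (SE 0.18, edgeR adjusted p = 0.498). On the TPM scale its sign turned (0.13 to 0.15), and without the pair of Q7 libraries it was -0.37 with an adjusted p of 0.0391. After treatment the lines separated.

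In Q7-T, Ahr was at 16.1, 7.17 and 12.4 TPM, within the range of Q7-C apart from the highest library. In Q111-T it was at 6.08, 5.07 and 6.58 TPM, below every Q111-C library. Ahr fell by 0.79 on the log2 scale with treatment in Q111 (SE 0.18, edgeR adjusted p = 0.00993, short of the 2-fold threshold) and stood at 0.38 (SE 0.18, adjusted p = 0.348) in Q7. The difference of these responses was -1.16 (SE 0.25, adjusted p = 0.0206), and Ahr was 2.57-fold lower in Q111-T than in Q7-T (log2 fold change -1.36, SE 0.18, adjusted p = 1.69e-04). On the TPM scale that difference was under 2-fold, at -0.93 to -0.84 with limma adjusted p of 0.0492 to 0.0502. The call for the difference of the responses was lost under 7 of 22 alternatives, with adjusted p from 2.59e-04 to 0.286 over all of them, and held without the pair of Q7 libraries (-1.05, adjusted p = 0.00309).

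The dimerisation partners changed in opposite directions between the lines. Arnt (ENSMUSG00000015522, chr3:95434388-95497237, plus strand), the general partner, was at 8.34, 14.4 and 17.4 TPM in Q7-C and 24.6, 27.5 and 26.3 TPM in Q111-C. With treatment it was at 17.4, 5.54 and 15.0 TPM in Q7-T and 32.0, 21.9 and 30.1 TPM in Q111-T. Every Q111 library was above every Q7 library. By edgeR the difference was below 2-fold, at 0.69 (SE 0.22, adjusted p = 0.0443) without and 0.83 (SE 0.22, adjusted p = 0.0125) with treatment. On the TPM scale the treated difference was above 2-fold (1.24 and 1.28 at pseudocounts of 0.5 and 0.1, limma adjusted p of 0.0262 and 0.0285), and the untreated difference missed the adjusted p under 13 of 23 alternatives, with adjusted p from 0.00392 to 0.139.

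Arnt2 (ENSMUSG00000015709, chr7:84246278-84410119, minus strand), the partner enriched in neurons, was at 16.5, 34 and 39.2 TPM in Q7-C and 8.30, 10.6 and 10.5 TPM in Q111-C. With treatment it was at 24.3, 7.04 and 25.4 TPM in Q7-T and 10.4, 6.04 and 8.87 TPM in Q111-T. The groups were apart without treatment, and with treatment Q7-T replicate 2 lay among the Q111-T libraries. Arnt2 was 3.67-fold lower in Q111-C than in Q7-C (log2 fold change -1.87, SE 0.30, edgeR adjusted p = 7.65e-04) and 2.77-fold lower in Q111-T than in Q7-T (log2 fold change -1.47, SE 0.30, adjusted p = 0.00254). The treated call was lost on the TPM scale (adjusted p of 0.128 to 0.132) and held without the pair of Q7 libraries (-1.72, adjusted p = 1.28e-05). Neither partner changed past the threshold with treatment, with edgeR adjusted p of 0.436 or more in each line.

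Because both partners have long transcripts, their ratio within a library was also taken. Arnt2 was 1.98 to 2.36 times the level of Arnt in Q7-C and 1.27 to 1.69 times in Q7-T. It was 0.338 to 0.400 times the level of Arnt in Q111-C and 0.276 to 0.326 times in Q111-T. Thus Arnt2 was the higher of the pair in all 6 Q7 libraries, including the libraries that stood apart, and Arnt was the higher in all 6 Q111 libraries. The level of Ahr relative to Arnt was 0.732 to 0.794 in Q7-C, 0.399 to 0.430 in Q111-C, 0.823 to 1.3 in Q7-T and 0.190 to 0.232 in Q111-T.

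The genes that restrain the receptor differed from each other. Ahrr (ENSMUSG00000021575, chr13:74211118-74292331, minus strand) had a count of 0 in every library of Q7-C, Q111-C and Q7-T and in Q111-T replicate 2, and 4 and 12 counts in Q111-T replicates 1 and 3, all at or under the floor, so it was not detected in any group. Tiparp (ENSMUSG00000034640, chr3:65528410-65555518, plus strand) was well expressed. It was at 15.9, 32.0 and 32.8 TPM in Q7-C and 20, 22 and 22.5 TPM in Q111-C, which lie inside the Q7-C range.

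With treatment Tiparp was at 34.6, 10.2 and 32.7 TPM in Q7-T and at 49.4, 45.3 and 49.2 TPM in Q111-T, above all other groups. It rose 2.39-fold in Q111 (log2 fold change 1.26, SE 0.25, edgeR adjusted p = 0.00400) and stood at 0.07 (SE 0.25, adjusted p = 0.943) in Q7. On the TPM scale the call in Q111 was lost (1.12 to 1.15, limma adjusted p of 0.079 to 0.0924). The difference of the responses was 1.19 (SE 0.35) and missed the threshold (adjusted p = 0.0733), but passed it without the pair of Q7 libraries (1.13, adjusted p = 3.04e-04). Between the lines it was at -0.60 (SE 0.25, adjusted p = 0.113) without and 0.60 (SE 0.25, adjusted p = 0.0752) with treatment. Both of these passed the adjusted p alone without the pair of Q7 libraries, at -0.76 (adjusted p = 6.57e-05) and 0.37 (adjusted p = 0.00521).

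**Figure D2:**
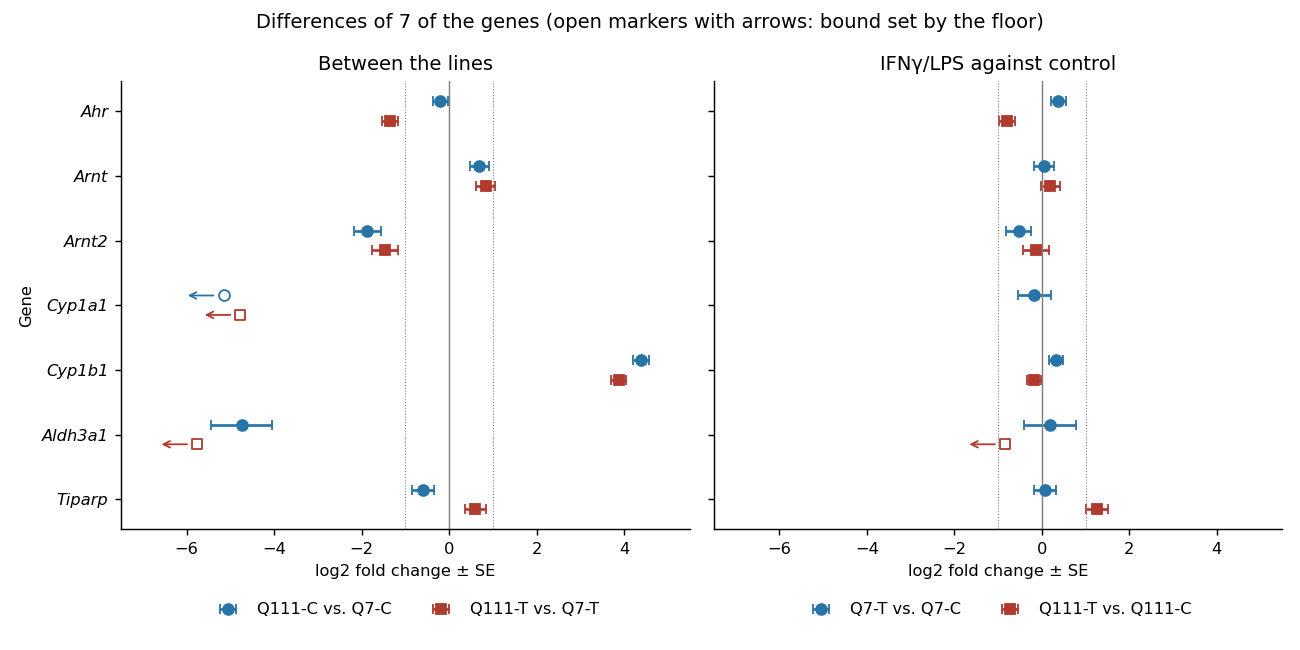
Log2 fold change with its SE (horizontal axes) of the 7 detected genes (vertical axis) between the lines on the left and with treatment on the right, from edgeR on 3 libraries a group; open markers with arrows are bounds set by the floor of 12 counts, and dotted lines mark a 2-fold change. Cyp1b1 stands at 4.39 and 3.87 to the right between the lines, while Cyp1a1, Aldh3a1 and Arnt2 stand to the left.

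Counted over the 5 tested genes other than Cyp1a1 and Aldh3a1, Q111-C against Q7-C had 1 higher DEG (Cyp1b1) and 1 lower (Arnt2), where 15.2% of all tested genes were DEGs, 7.62% higher and 7.61% lower. Q111-T against Q7-T had 1 higher (Cyp1b1) and 2 lower (Ahr and Arnt2), where 24.5% of all tested genes were DEGs, 13.3% higher and 11.2% lower. By the adjusted p alone Arnt joined in both comparisons, where 22.7% and 38.4% of all genes passed. Their median log2 fold changes were -0.20 and 0.60, beside -0.02 and -0.03 over all genes. For the treatment, none of the 7 tested genes was a DEG in Q7 by edgeR (4.04% of all genes were), with an adjusted p of 0.348 or more none had an unadjusted p under 0.05 (the smallest was 0.0580), and DESeq2 and limma called 0 of the 7. In Q111, edgeR called Tiparp alone among the 6 tested genes other than Cyp1a1, DESeq2 called Tiparp and Aldh3a1, and limma called 0 at a pseudocount of 0.5 (11.2% of all genes were DEGs by edgeR, 8.28% rising). Ahr passed edgeR's adjusted p alone (18.7% of all genes). Over the 5, edgeR called Ahr alone for the difference of the responses, where it called 4.71% of all genes, 1.2% with a negative sign. DESeq2 called 2 of the 5 and limma 0, and their shares of all genes differ from that of edgeR. In the 4 comparisons, the share of all tested genes with no overlap in TPM between the groups of 3 was 51.4%, 46.3%, 14.4% and 49.6%, so a gap between 3 libraries and 3 others was common here, and an exact permutation test on them cannot give a p below 0.1.

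The order of the levels also differed between the lines. In Q7-C the means ran from Arnt2 (29.9 ± 11.9 TPM, SD, n = 3) and Tiparp (26.9 ± 9.57) through Arnt (13.4 ± 4.6), Ahr (10.4 ± 3.91) and Aldh3a1 (7.68 ± 1.05) to Cyp1b1 (4.6 ± 1.52) and Cyp1a1 (3.6 ± 0.574). Neighbours in that order differed by less than the larger of their SDs, apart from the steps from Tiparp to Arnt and from Aldh3a1 to Cyp1b1. In Q111-C the order was Cyp1b1 (117 ± 13.2 TPM, SD, n = 3), Arnt (26.1 ± 1.45), Tiparp (21.5 ± 1.3), Ahr (10.9 ± 0.603), Arnt2 (9.81 ± 1.3) and Aldh3a1 (0.368 ± 0.215), with Ahr and Arnt2 within their spread of each other.

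The 3 chaperone genes described here, for proteins that hold the receptor in the cytoplasm, had log2 fold changes below 0 between the lines, mostly under 2-fold in size. Without treatment none of the 3 was a DEG by edgeR, DESeq2 or limma, where 15.2% of all genes were DEGs by edgeR. All 3 had an unadjusted edgeR p under 0.05, for which no share of all genes is given here. Hsp90ab1, the constitutive HSP90, and Ptges3, which encodes p23, passed the adjusted p alone, each 0.78 lower on the log2 scale (edgeR adjusted p = 0.00543 and 0.00984). With treatment 1 was a DEG, where 24.5% of all genes were: Hsp90ab1, lower in Q111-T (log2 fold change -1.11, SE 0.17, adjusted p = 3.86e-04). It was at 2907, 1255 and 2764 TPM in Q7-T and 1496, 1127 and 1437 TPM in Q111-T, so Q7-T replicate 2 lay among the Q111-T libraries, and the call was lost under 3 of 23 alternatives, those on the TPM scale. The adjusted p alone was passed by all 3, and by 38.4% of all genes, with Hsp90aa1 at -0.58 (edgeR adjusted p = 0.0223) and Ptges3 at -0.57 (adjusted p = 0.0298). For the treatment, edgeR, DESeq2 and limma called 0 of the 3 in either line, where 4.04% (Q7) and 11.2% (Q111) of all genes were DEGs. None of the 3 had an unadjusted edgeR p under 0.05.

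Of 10 other reported targets of the receptor, 8 could be tested, and they did not share a direction. Without treatment 2 of the 8 were lower in Q111 and none higher, where 7.61% of all genes were lower DEGs: Gsta1, a glutathione S-transferase, and Cyp2s1, a P450 at 0.543 to 1.25 TPM in the control libraries. Gsta1 was at 41.6, 40.7 and 32.0 TPM in Q7-C and 4.61, 3.57 and 5.25 TPM in Q111-C, 10.8-fold lower (log2 fold change -3.43, SE 0.30, edgeR adjusted p = 9.22e-06). The Cyp2s1 call (-1.11, SE 0.33, adjusted p = 0.0324) was lost under 12 of 22 alternatives, among them leaving out any one library of either group (-1.16 to -0.95, adjusted p of 0.0507 to 0.121). Cyp1a2, the neighbour and closest relative of Cyp1a1, had counts in only 2 libraries, 18 in Q7-C replicate 3 and 13 in Q111-T replicate 2. Scin, a gelsolin relative, was not detected outside Q111-T.

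Cyp2s1 reached 0.5 TPM in too few treated libraries to pass the filter through them, so 7 genes were counted for the treatment. In Q111 cells 5 of the 7 rose and none fell, where 11.2% of all genes were DEGs and 8.28% rose: Gsta1, Xdh, Nqo1, Ugt1a6a and Nfe2l2. DESeq2 also called 5 and limma on the TPM scale 2. Gsta1 reached 46.8, 45.9 and 45.4 TPM in Q111-T, beside 35.0, 35.1 and 33.6 TPM in Q7-T, so the gap between the lines had closed. It rose 11-fold in Q111 (log2 fold change 3.46, SE 0.30, edgeR adjusted p = 9.49e-06). Nqo1, the quinone reductase, was at 206, 219 and 205 TPM in Q111-C and 415, 406 and 369 TPM in Q111-T, a log2 fold change of 1.03 (SE 0.16, adjusted p = 8.21e-04) that went just below 2-fold without Q111-C replicate 3 (0.98) or Q111-T replicate 2 (0.89). Nfe2l2, which encodes the oxidant-responsive factor NRF2, rose by 1.06 (SE 0.18, adjusted p = 0.00145), and by 0.96 without Q111-T replicate 2. Ugt1a6a rose by 2.01 (SE 0.52, adjusted p = 0.0178), a call lost without Q111-C replicate 2 (1.85), Q111-C replicate 3 (1.85) or Q111-T replicate 1 (1.93), with adjusted p of 0.082, 0.0793 and 0.0523, and it shares exons with Ugt1a6b, so its reads are uncertain.

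In Q7 cells 1 of the 7 rose with treatment, where 4.04% of all genes were DEGs. Xdh, xanthine dehydrogenase, went from 1.25, 2.50 and 2.65 TPM in Q7-C to 37.4, 16.5 and 42.7 TPM in Q7-T, a log2 fold change of 4.07 (SE 0.28, edgeR adjusted p = 2.23e-06). In Q111 it went from 2.45, 3.55 and 3.34 TPM to 20.1, 11.2 and 21.5 TPM, 2.58 (SE 0.26, adjusted p = 2.99e-05). Cyp2s1, left out of that count, had a fitted change of -1.42 in Q7 (SE 0.34). The responses of Gsta1, Nqo1 and Xdh differed between the lines, by 3.39, 1.18 and -1.49 on the log2 scale. The Xdh difference lost its call on the TPM scale (limma adjusted p of 0.237 to 0.26). It was also lost without some single libraries (edgeR adjusted p of 0.0507 to 0.0793). Between the treated lines 1 of the 8 was higher and 1 lower by edgeR, where 24.5% of all genes were DEGs: Ugt1a6a was higher (1.88, SE 0.51, adjusted p = 0.0137) and Xdh lower (-1.23, SE 0.25, adjusted p = 0.00255) in Q111-T relative to Q7-T, but Q7-T replicate 2 lay among the Q111-T libraries for Xdh and its call was lost on the TPM scale (as near to 0 as -0.78, limma adjusted p up to 0.147). Nqo1 was under 2-fold higher (0.94, SE 0.16, edgeR adjusted p = 8.28e-04). On the TPM scale limma called 4 higher and none lower at a pseudocount of 0.5, namely Ugt1a6a (2.30), Nqo1 (1.36), Nfe2l2 (1.05) and Ugt1a6b (1.02). The median over the 7 was 1.06 in Q111 and 0.35 in Q7, beside 0.00 over all genes.

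**Figure D3:**
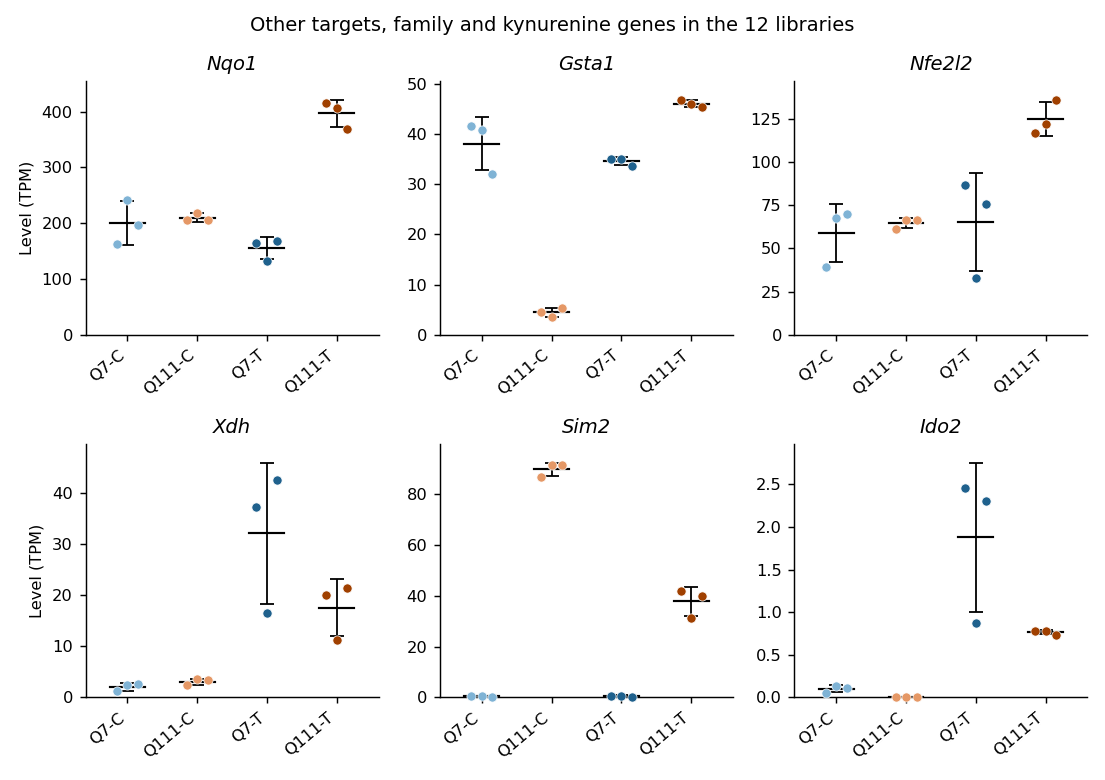
Level in TPM (vertical axes, linear and starting at 0, a separate scale for each gene) of 6 other genes in the 12 libraries by group, drawn as points with the mean and the SD of 3 libraries. Gsta1 is lowest in Q111-C (3.57 to 5.25 TPM) and Nqo1 highest in Q111-T (369 to 415 TPM), while Sim2 is high in both Q111 groups.

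Among 12 other genes of the bHLH-PAS family, of which 11 were in the table and 7 tested, the largest difference between the lines was that of Sim2, a developmental transcription factor that also pairs with ARNT. Sim2 was at 0.687, 0.467 and 0.267 TPM in Q7-C and 87.0, 91.5 and 91.4 TPM in Q111-C (log2 fold change 7.17, SE 0.65, edgeR adjusted p = 1.27e-05). With treatment it was at 0.149 to 0.738 TPM in Q7-T and 31.5 to 41.9 TPM in Q111-T (5.83, SE 0.62, adjusted p = 3.16e-05). Npas4, an activity-dependent neuronal factor that passed the filter through Q7 alone, was at 0.395 to 0.767 TPM in the Q7 libraries and at or under the floor in Q111, at least 7.53-fold lower without and 8.07-fold lower with treatment. Npas2 and Npas3 were not detected in Q111-C alone, and Hif3a in no group. The clock gene Arntl rose in Q111 with treatment (1.06, SE 0.25, adjusted p = 0.0108; 1.00 with an adjusted p of 0.0535 without Q111-C replicate 3), as did Arntl2 (1.14, SE 0.19, adjusted p = 0.00113). On the TPM scale the call for Arntl was lost at all 3 pseudocounts (0.84 to 0.95, limma adjusted p up to 0.152), and Arntl2 was under 2-fold at pseudocounts of 0.5 and 1 (0.95 and 0.87). Arntl2 was higher in Q111-T relative to Q7-T (1.42, SE 0.19, adjusted p = 1.49e-04). For the treatment in Q7, edgeR, DESeq2 and limma called 0 of the 5 genes that did not pass the filter through one state alone. By edgeR 4.04% of all genes were DEGs with treatment in Q7 and 11.2% in Q111. Of the 5, 3 had an unadjusted edgeR p under 0.05 in Q7, for which no share of all genes is given here.

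The enzymes that turn tryptophan into kynurenine and related ligands of the receptor were mostly low. Of 11, 4 could be tested, and 3 were not detected in any group (Kmo, Kynu and Haao). Ido2, a tryptophan dioxygenase, was at 0.0568, 0.138 and 0.111 TPM in Q7-C and had a count of 0 in all Q111-C libraries. With treatment it was at 2.46, 0.872 and 2.31 TPM in Q7-T and 0.780, 0.783 and 0.739 TPM in Q111-T. Ido2 passed the filter through the treated libraries alone, so its rise is a description: it was 4.31 higher in Q7-T on the log2 scale (SE 0.41) and at least 8.74-fold higher in Q111-T than in Q111-C. Q111-T stayed below Q7-T (-1.59, SE 0.36, edgeR adjusted p = 0.00683), a call lost on the TPM scale. Q111-C was at least 1.31-fold below Q7-C. The related dioxygenase Ido1 was detected in the treated groups only, at up to 0.734 TPM. Tdo2 was not detected in Q7-T, Il4i1 was above the floor in Q7-C alone, and Aadat was not detected in Q111.

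Kyat3, an aminotransferase that makes kynurenic acid, was higher in Q111-C and rose with treatment. It was at 0.332, 0.466 and 0.324 TPM in Q7-C and 1.25, 1.39 and 1.40 TPM in Q111-C (log2 fold change 1.5, SE 0.21, edgeR adjusted p = 2.82e-04). With treatment it rose by 1.98 (SE 0.21, adjusted p = 1.05e-04) to 1.05 to 1.57 TPM in Q7-T, and by 1.11 (SE 0.20, adjusted p = 0.00260) to 2.37 to 3.08 TPM in Q111-T. Between the treated lines it was at 0.63, under 2-fold (adjusted p = 0.0297), and the rise in Q111 was under 2-fold on the TPM scale. At a pseudocount of 1 the difference between the untreated lines (0.77) and the rise in Q7 (0.75) were under 2-fold as well.

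Of the genes around Cyp1a1 on chromosome 9, most were present in both lines. Distances are counted from the start of the Cyp1a1 gene span (chr9:57687928). It lies upstream of the RefSeq start site used for the promoter, which ends at chr9:57697612. Within 200 kb on either side, 14 other genes lay in the table and 11 were tested, of which 3 passed the filter through one line alone and were left out of the counts. Of the other 8, edgeR, DESeq2 and limma called 0 without treatment, where 15.2% of all tested genes were DEGs. With treatment edgeR and DESeq2 called 2 and limma 0, where 24.5% were DEGs. Without treatment 1 of the 8 had an unadjusted edgeR p under 0.05, for which no share of all genes is given here. Of the 3 left out, Lman1l, a lectin gene with its start at -67.2 kb from that of Cyp1a1, was at 0.757, 0.361 and 0.788 TPM in Q7-C and at 0 in Q111-C, at least 4.03-fold lower, and at least 5.97-fold lower in Q111-T than in Q7-T. Its fitted rise with treatment in Q111 rests on 12, 8 and 0 counts and lies at or under the floor. Rpp25, a ribonuclease P subunit gene, went the other way: it was at or under the floor in Q7-C and at 0.715, 0.839 and 1.09 TPM in Q111-C, at least 3.27-fold higher. Gm26631 was at 0.161 to 0.511 TPM in the untreated libraries. The 2 genes lower in Q111-T were Cox5a, a cytochrome c oxidase subunit (-1.32, SE 0.43, edgeR adjusted p = 0.0322), and Mpi, mannose phosphate isomerase (-1.02, SE 0.23, adjusted p = 0.00504). Without Q7-T replicate 2, neither was a DEG, at -0.52 for Cox5a (adjusted p = 0.155) and -0.64 for Mpi (adjusted p = 0.00226).

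The nearest expressed genes on both sides were present in every library. Csk, a kinase that restrains SRC, has its start at -42.3 kb and was at 36.7 to 41.5 TPM in Q7-C and 36 to 37.2 TPM in Q111-C (-0.40, SE 0.13, edgeR adjusted p = 0.0509), and between the treated lines it was at -0.46 (SE 0.13, adjusted p = 0.0186). Edc3, an mRNA decapping factor, has its start at 20.6 kb and was at 11.5, 15.4 and 17.1 TPM in Q7-C and 17.4, 19.9 and 19.3 TPM in Q111-C, with a log2 fold change of 0.06 (SE 0.12, adjusted p = 0.788).

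**Figure D4:**
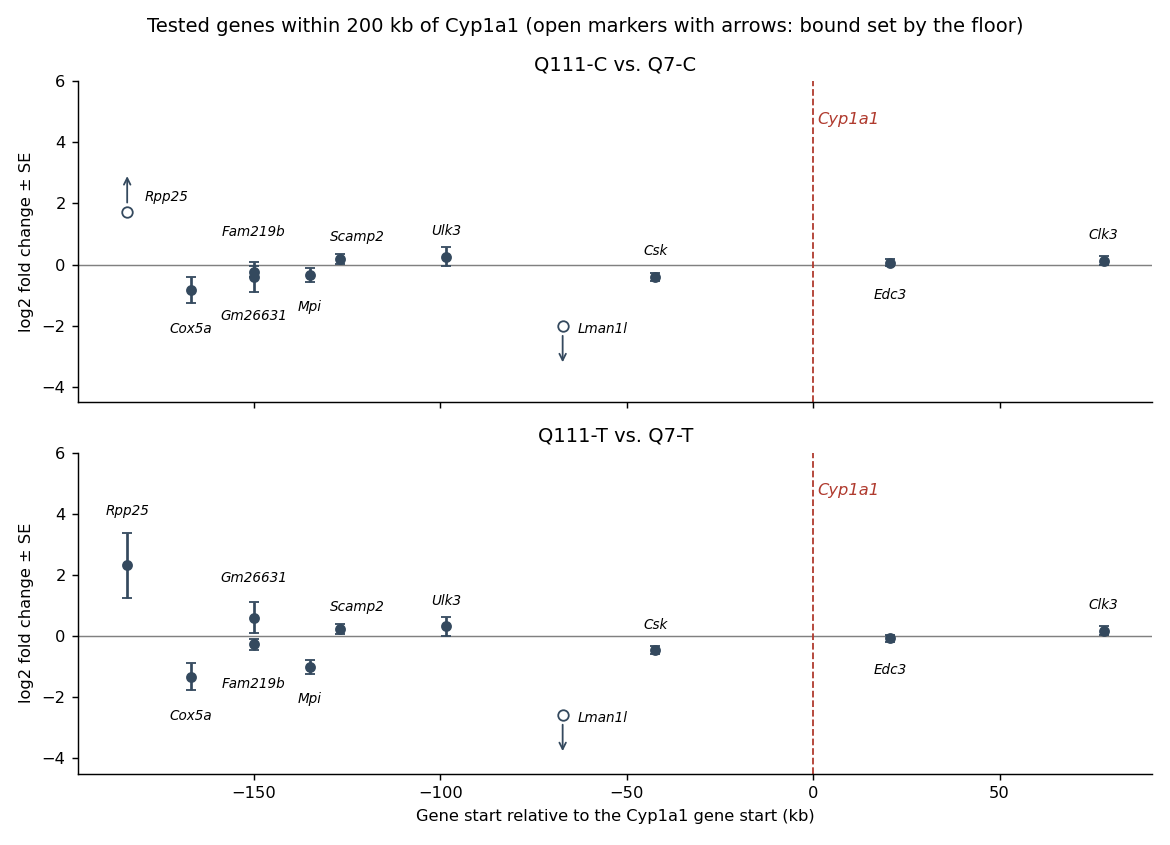
Log2 fold change with its SE (vertical axes) of the 11 tested genes against the distance of their start from that of Cyp1a1 in kb (horizontal axis), without treatment above and with treatment below; the dashed line marks Cyp1a1 and open markers with arrows are bounds. Edc3 and Csk, on either side of Cyp1a1, stand at 0.06 and -0.40 in the upper panel, where Lman1l and Rpp25 have bounds in opposite directions.

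The 5 tested genes whose log2(TPM + 0.5) values were most like those of Cyp1a1 over the 12 libraries were Gpr149, C130071C03Rik, Lhx1, Sall1 and Pax6, with Pearson's r of 0.997, 0.994, 0.994, 0.993 and 0.993. The points fall into the 2 lines and share their libraries and depth, so these values describe the gap between the lines and, within Q7, the low values of Q7-T replicate 2. Gpr149, an orphan receptor gene, was at 0.216 to 0.737 TPM in Q7 and at 0 in all Q111 libraries. Lhx1, Sall1 and Pax6, transcription factors of development, were at 1.16 to 5.73, 3.36 to 12.6 and 2.90 to 8.62 TPM in Q7, and at no more than 0.102, 0.120 and 0.201 TPM in Q111. The other genes of the pathway were not among the candidates, as they were left out of this ranking.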

How the data were processed

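Poly(A) RNA of 12 samples, 3 for each of 4 groups, was sequenced as stranded paired-end libraries. The authors trimmed reads with Cutadapt, aligned them with HISAT2 to GRCm38 (Ensembl release 101) and assembled and quantified genes with StringTie, and the submitters' processing notes also name FastQC, DESeq2 and edgeR. The deposited tables give TPM and estimated counts per gene (the authors' values, with no versions stated in the sources used here). TPM summed to 688352 to 719623 over the listed genes, since other transcripts are not listed there. Whether counting used strand is not given in the sources used here: Arnt and Arnt2 overlap small genes on their own strand, and Ahr, Tiparp and Arnt2 on the opposite strand.

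The 8 genes and all lists were chosen with earlier results of these data known, and some list genes are not reported here. Estimated counts, deposited as whole numbers, were fitted with edgeR 4.0.16 (TMM scaling, a mean per group over 12 libraries, quasi-likelihood F test, R 4.3.3), with genes filtered at 0.5 TPM in 3 libraries and p-values adjusted over 16127 genes. SE was the absolute log2 fold change over the square root of F. Interaction is the response of Q111 minus that of Q7. Alternatives used DESeq2 1.42.0, limma 3.58.1 on log2(TPM + 0.5), other filters, scalings and pseudocounts, a block for the replicate number, and each library left out. Low counts piled up on multiples of 4, so 1 read pair was taken as 4 counts, and the floor, 3 read pairs, as 12 counts per library. Bounds cover counting error only. Genes with under 3 libraries at 0.5 TPM in one line, or in one state, were left out of counts between the lines, or for the treatment. Named were the 8 genes, DEGs and undetected genes of each list (up to 6 per list and comparison), DEGs beside Cyp1a1, and the 5 genes most like it; Edc3, Csk and other genes under the threshold were named after their values were seen. In simulated counts with 200 changed genes, 140 calls were made for Q111-T against Q7-T, 135 of them right, and 98 for the interaction, 96 of them right.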

Additional observations from a re-analysis of the deposited data

Results flagged for a closer look

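The response to IFNγ/LPS differed between the lines for 8 of 35 pathway and marker genes tested, beside 4.71% of all genes, by edgeR's test of the difference itself (STHdhQ111 response minus STHdhQ7 response, log2 scale, 3 libraries a group). The 35 pool the pathway lists with the treatment check and the cell type markers. They were chosen with earlier results of these data known, so their share is not a test of the pathway. For Ahr the difference was -1.16 (SE 0.25, adjusted p = 0.0206), with all 3 Q111-T libraries below all 3 Q111-C libraries and overlapping ranges in Q7. A gap between Q111-T and Q111-C was found for 49.6% of all tested genes. The Ahr call was lost under 7 of 22 alternatives, with adjusted p up to 0.286 (limma). For Nqo1 the difference was 1.18 (SE 0.22, edgeR adjusted p = 0.0105), held under all 22 alternatives. For Gsta1 it was 3.39 (SE 0.39, adjusted p = 7.02e-04), also held under all 22. For Xdh it was -1.49 (SE 0.35, adjusted p = 0.0286), lost under 9 of 22 alternatives, which gave values from -1.67 to -1.19 and adjusted p up to 0.260. Ido2 was left out, as it passed the filter through treated libraries alone and had a count of 0 in Q111-C. Among the genes of the treatment check and the cell type markers it was 2.59 for Nos2 (SE 0.59, adjusted p = 0.0253), 1.81 for Map2 (SE 0.48, adjusted p = 0.0496), -1.96 for Slc1a3 (SE 0.38, adjusted p = 0.0109) and -1.20 for Pdgfrb (SE 0.28, adjusted p = 0.0283). Col1a2 passed the adjusted p alone, at -0.91 (SE 0.23, adjusted p = 0.0371).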

How the results depend on the processing

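Over 27 values of the pathway genes and up to 23 alternatives, 551 of 616 alternative values kept their direction and their side of an adjusted p of 0.05. Aldh3a1 entered this tally by its Q7 response alone. Its Q111 response, left out, missed an adjusted p of 0.05 by edgeR (0.0784) and passed it by DESeq2 (0.00875). The calls for Cyp1b1 and Arnt2 without treatment, and for Cyp1b1 with treatment, held under all 23. On the TPM scale (limma, pseudocounts 0.5, 0.1 and 1) values past no threshold changed sign: Ahr between the untreated lines (0.14, 0.15 and 0.13), and in Q7 with treatment Tiparp (-0.17, -0.17 and -0.16), Arnt (-0.16, -0.17 and -0.15) and Aldh3a1 (-0.05, -0.05 and -0.04). The same fits missed an adjusted p of 0.05, passed by edgeR, for Arnt without treatment (1.00, 1.02 and 0.97), Arnt2 with treatment (-0.95, -0.98 and -0.92), Ahr (-0.83, -0.88 and -0.79) and Tiparp (1.14, 1.15 and 1.12) in the Q111 response, and Ahr in the difference of the responses (-1.03, -1.08 and -0.97). Ahr between the treated lines missed the adjusted p at a pseudocount of 0.1 (-0.93) and was under 2-fold at all 3. With DESeq2, Tiparp passed the adjusted p between the treated lines (0.61, under 2-fold) and in the difference of the responses (1.19). Without the filter, Arnt between the untreated lines missed it (0.69). In fits of only the groups compared, Tiparp without treatment passed it (-0.59, under 2-fold) and Arnt with treatment missed it (0.84). With the floor at 3 counts, the bounds for Cyp1a1 became 143-fold and 109-fold. DEG counts moved from 651 to 414 (limma, pseudocount 1) and 394 (only the groups compared) for Q7-T against Q7-C, and from 760 to 1299 (DESeq2) for the difference of the responses. The cause of these changes was not tested, and the fits of only the groups compared also held fewer samples.

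Leaving out a library in turn, or the pair of Q7 libraries together, gave for Ahr -0.36 to 0.00 singly and -0.37 together (untreated lines) and -1.35 to -1.0 (difference of the responses), for Arnt 0.55 to 0.86 (untreated lines), 0.60 to 1.00 (treated lines), -0.12 to 0.28 (Q7 response) and -0.10 to 0.31 (difference), for Tiparp -0.76 to -0.46 (untreated lines), 0.34 to 0.75 singly and 0.37 together (treated lines), -0.10 to 0.34 (Q7 response) and 0.92 to 1.36 singly and 1.13 together (difference), for Cyp1a1 in the Q7 response -0.49 to 0.12, for Aldh3a1 in it -0.18 to 0.48, for the bound of Cyp1a1 between the untreated lines 34 to 38.3 (its bound between the treated lines is not covered here), and for the DEG count of the difference 511 to 1374. Leaving out a single library moved Arnt between the untreated lines, Ahr and Tiparp in the difference of the responses and Tiparp between the untreated lines across an adjusted p of 0.05.

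Correlations of deviations between samples of the same replicate number were -0.42 to 0.30, with 6 of 18 over 0.1. With 3 libraries in a group, these values cannot decide whether the numbers pair the samples. With a replicate block, Arnt between the untreated lines was 0.69 with an adjusted p of 0.0557, and DEG counts were 2315, 3774, 570, 1693 and 626. The block moved no other of the 27 values across that p, and it lost both calls of Cyp2s1. Depth limits Cyp1a1, Aldh3a1 and Ahrr, where fewer than about 3 read pairs cannot be told from absence.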
